A study of Mus musculus with 29 samples.

Results

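The proteins that bundle and pull actin filaments were followed here through the 9 genes Actn1, Actn4, Flna, Fscn1, Coro1a, Myh9, Myl6, Myl12a and Myl12b. They were found by their symbols through the Ensembl identifiers of the deposited tables. All 9 are among the 38924 genes measured in blood stem and progenitor cells and among the 18194 genes measured in the surrounding niche cells.

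The libraries are of mouse cells of strain 129Ly5.1. LSK cells (lineage-negative cells that carry Sca-1 and Kit) were sorted after transplantation from hosts whose niche was wild-type (WT, 6 libraries) or haploinsufficient for Wnt5a, the gene of a secreted signal (Wnt5a, 5 libraries). Endothelial (EC), osteoblastic (OBC) and mesenchymal (MSC) niche cells were each profiled in 3 WT and 3 Wnt5a libraries. In the Wnt5a groups the label gives only the name of the gene, and the design text gives the haploinsufficiency. Age, conditioning of the hosts, donor genotype and the number of animals or cells behind a library are not given in the labels. LSK libraries hold 1254553 to 5775459 Smart-seq2 reads and niche libraries 10635 to 117989 unique molecular identifiers (UMIs), which count cDNA molecules. OBC libraries hold 10635 to 29772 UMIs, so single UMIs weigh much there, as they do in EC Wnt5a replicate 16 (18542) and MSC Wnt5a replicate 4 (19999).

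Filamentous actin gives a cell its shape and stiffness, and cross-linking proteins set whether its filaments form loose nets, contractile arrays or tight bundles. Alpha-actinins (Actn1, Actn4) and filamin A (Flna) tie filaments together and anchor them to adhesion sites, and fascin (Fscn1) packs them into the straight bundles of filopodia. Non-muscle myosin II slides the filaments past each other: Myh9 encodes its heavy chain IIA, Myl6 its essential light chain, and Myl12a and Myl12b its regulatory light chains, whose phosphorylation switches the motor on. Coronin 1A (Coro1a) binds actin mainly in cells of the blood lineage. In blood stem cells this machinery is known for its part in homing, adhesion and division.

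The upstream sequences of the 3 genes that varied together across LSK libraries (Actn1, Flna and Myh9) are shown with that of Myl6, the only member with a CArG box. A CArG box is the motif that serum response factor binds in front of many cytoskeletal genes. Each stretch runs from 250 bases before to 50 bases after a RefSeq gene start on build GRCm38.p6, is read on the gene's own strand, and comes from the minus strand of its chromosome. Actn1 is at chr12:80260314-80260613, Flna at chrX:74246485-74246784, Myh9 at chr15:77842126-77842425 and the second Myl6 start at chr10:128492960-128493259. Capitals mark GGGCGG and CCAAT on either strand (also read as CCGCCC and ATTGG) and the CArG box.
Actn1: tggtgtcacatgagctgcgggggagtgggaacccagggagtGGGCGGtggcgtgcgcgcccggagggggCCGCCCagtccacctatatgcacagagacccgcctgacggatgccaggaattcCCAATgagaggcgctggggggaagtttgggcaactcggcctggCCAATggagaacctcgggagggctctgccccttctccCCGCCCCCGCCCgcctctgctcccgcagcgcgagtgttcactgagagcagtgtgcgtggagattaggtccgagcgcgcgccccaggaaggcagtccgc
Flna: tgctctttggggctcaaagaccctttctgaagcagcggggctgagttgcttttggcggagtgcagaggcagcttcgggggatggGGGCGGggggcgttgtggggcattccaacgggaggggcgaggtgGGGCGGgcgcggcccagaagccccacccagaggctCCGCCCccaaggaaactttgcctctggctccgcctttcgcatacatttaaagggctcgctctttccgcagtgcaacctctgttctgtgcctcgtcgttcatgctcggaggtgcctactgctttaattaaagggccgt
Myh9: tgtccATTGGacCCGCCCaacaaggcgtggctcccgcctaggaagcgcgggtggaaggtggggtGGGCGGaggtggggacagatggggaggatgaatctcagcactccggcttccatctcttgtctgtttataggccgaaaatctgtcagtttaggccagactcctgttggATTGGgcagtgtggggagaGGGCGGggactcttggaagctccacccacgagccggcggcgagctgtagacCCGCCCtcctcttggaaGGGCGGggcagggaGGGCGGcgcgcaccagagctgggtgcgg
Myl6: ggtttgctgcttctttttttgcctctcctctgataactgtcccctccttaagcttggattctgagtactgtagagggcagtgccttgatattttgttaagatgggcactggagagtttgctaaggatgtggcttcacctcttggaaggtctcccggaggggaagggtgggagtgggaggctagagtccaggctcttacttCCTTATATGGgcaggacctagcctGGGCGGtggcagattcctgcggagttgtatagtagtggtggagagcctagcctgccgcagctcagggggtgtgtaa

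Promoter entries were found for all 9 genes, 11 in number because Myl6 and Coro1a have 2 starts each. The Myl6 CArG box begins 50 bases before the start. It was the only one in the 11 stretches, against 1.63% of 32851 mouse promoters of the same length. GGGCGG stood 4 times in the Actn1 stretch, 3 times in Flna and 6 times in Myh9, and 35.7% of all promoters hold it at least once. CCAAT stood 2 times in Actn1 and 2 times in Myh9, not in Flna, and is in 37.4% of all promoters. The absence of a match says only that these letters are not in the window.

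The LSK libraries answer whether the niche genotype goes with the expression of these genes in regenerated stem and progenitor cells. Levels are given in CPM, the reads or UMIs of a gene per 1000000 of the library's TMM-scaled total (TMM corrects for differences in composition). In WT niches Coro1a was the most abundant member per length, at 98.8 ± 18.04 CPM per kilobase (SD, n = 6), followed by Myl12b at 62.5 ± 14.8 and Myl6 at 52.2 ± 8.93. Myl12a stood at 34.3 ± 10.4, Flna at 14.7 ± 3.03 and Myh9 at 8.98 ± 3.05 on the same scale. The lowest were Actn4 at 6.99 ± 0.779, Actn1 at 3.46 ± 1.67 and Fscn1 at 0.854 ± 0.614. Myl12b and Myl6 lie within 1 SD of each other, while the step down from Coro1a exceeds the SDs. The light chains were thus more abundant per length than the heavy chain they bind. In Wnt5a niches Coro1a again led at 90.3 ± 15.3 (SD, n = 5). Actn1 at 9.56 ± 5.86 and Actn4 at 5.27 ± 1.72 stood in the opposite order there, with Myl12a at 44.9 ± 14.5 and Myl6 at 44.0 ± 12.97 level.

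**Figure D1:**
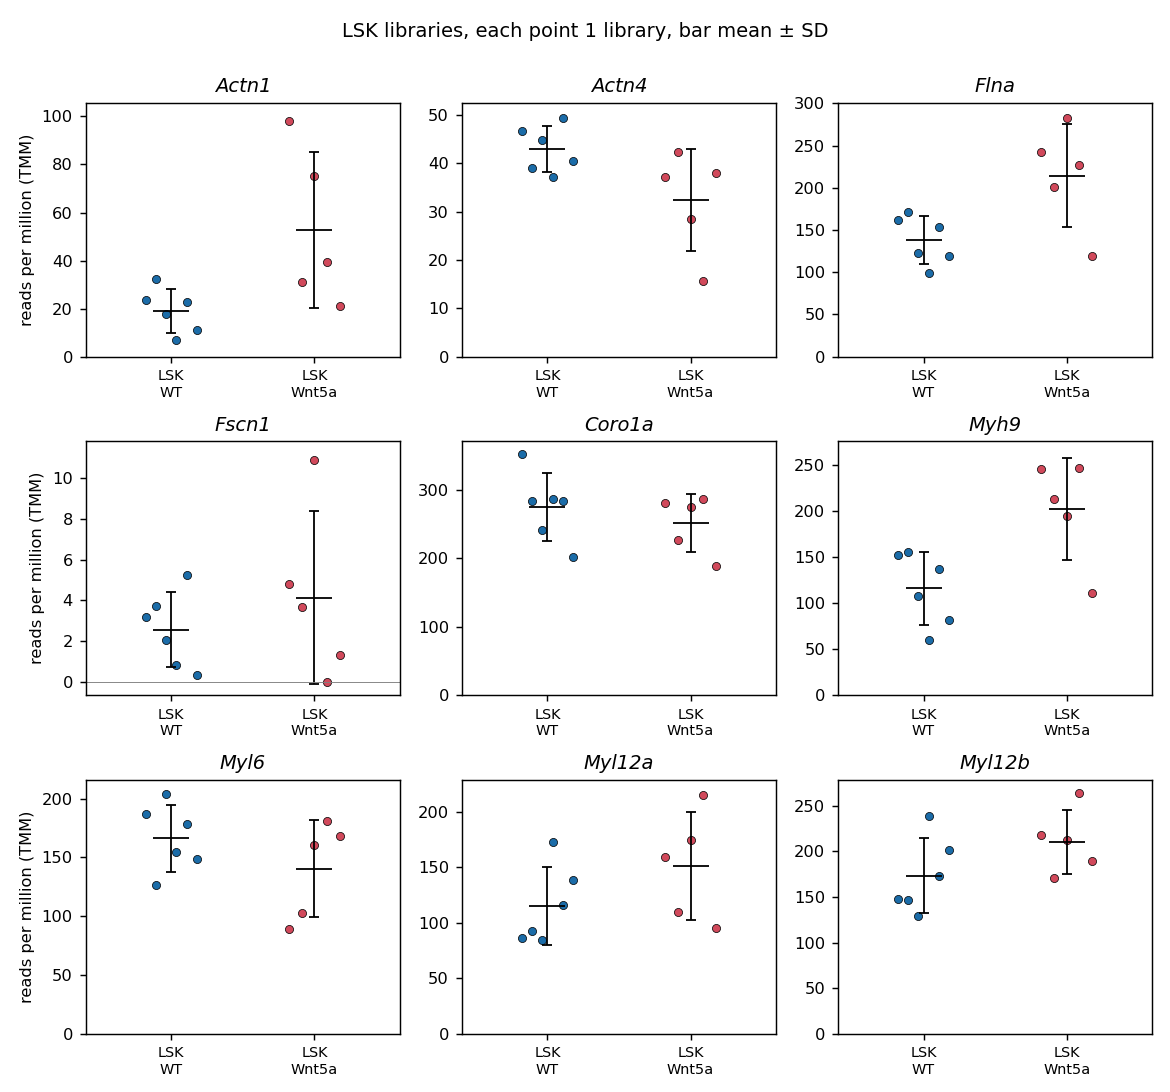
CPM (reads) of the 9 genes in LSK libraries from WT (blue, 6) and Wnt5a (red, 5) niches, with 1 point per library in replicate order from left to right and the mean ± SD as a bar. Actn1, Flna and Myh9 have most red points above the blue ones, with Wnt5a replicate 5 at 20.9, 120 and 111 CPM among or near the blue points.

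Actn1 (ENSMUSG00000015143, chr12:80167547-80260371, minus strand, GRCm38) had the largest difference of the 8 members tested. Its WT libraries held 23.8, 32.3, 17.8, 6.84, 22.9 and 11.1 CPM, and its Wnt5a libraries 97.998, 30.9, 75.0, 39.6 and 20.9. Of the Wnt5a libraries 3 of 5 lay above every WT library, and replicates 2 and 5 lay among them. The log2 fold change (Wnt5a over WT) was 1.48 (SE 0.44, adjusted p = 0.116 by edgeR's quasi-likelihood test over all genes). Myh9 (ENSMUSG00000022443, chr15:77760587-77842175, minus strand) read 153, 156, 108, 60.1, 138 and 81.5 in WT and 246, 213, 195, 247 and 111 CPM in Wnt5a. For this heavy chain 4 of 5 Wnt5a libraries exceeded every WT library and replicate 5 did not, with a log2 fold change of 0.80 (SE 0.26, adjusted p = 0.133).

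Flna (ENSMUSG00000031328, chrX:74223461-74249820, minus strand) put the WT libraries in the same order as Actn1 and Myh9. It held 162, 172, 123, 99.2, 154 and 119 CPM in WT and 242, 201, 283, 227 and 120 in Wnt5a. Again 4 of 5 Wnt5a libraries lay above all WT libraries and replicate 5 lay at the level of WT replicate 6. The log2 fold change was 0.64 (SE 0.22, adjusted p = 0.147).

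The second alpha-actinin had a value of the opposite sign that did not pass the test. Actn4 (ENSMUSG00000054808, chr7:28893248-28962340, minus strand) held 46.7, 39.0, 44.7, 37.1, 49.2 and 40.4 CPM in WT and 37.2, 42.2, 28.4, 15.7 and 38.0 in Wnt5a. Wnt5a replicates 3 and 4 lay below every WT library, and the other 3 overlapped with WT. Its log2 fold change was -0.40 (SE 0.27, adjusted p = 0.456). Of the length-scaled sum of both alpha-actinins, Actn1 made up 31.5 ± 10.7% in WT (SD, n = 6) and 61.1 ± 18.2% in Wnt5a (SD, n = 5). The ranges, 16.97 to 47.9% and 37.9 to 74.5%, overlap, and the two-sided exact permutation p was 0.0173, or 0.139 after adjustment over the 8 shares compared in the study's populations. This share was chosen after the values of both genes were seen.

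The regulatory light chains and the essential light chain differed less. Myl12a (ENSMUSG00000024048, chr17:70993656-71002878, minus strand) had a lowest, median and highest WT value of 84.2, 104 and 173 CPM, and 159, 109, 174, 215 and 95.6 in Wnt5a, with a log2 fold change of 0.38 (SE 0.25, adjusted p = 0.417). Its neighbour Myl12b (ENSMUSG00000034868, chr17:70973133-70990890, minus strand) ran from 129 over 161 to 239 in WT and held 218, 171, 212, 264 and 189 in Wnt5a, a log2 fold change of 0.28 (SE 0.19, adjusted p = 0.439). In both genes the groups overlapped widely. Myl12a made up 35.1 ± 1.67% of the length-scaled pair in WT and 36.4 ± 4.59% in Wnt5a (SD, n = 6 and 5, exact permutation p = 0.528). The pair shares a small part of its sequence: 5.65% of the 50-base stretches in Myl12a transcripts are also in Myl12b. Of those in Myl12b 7.07% are also in Myl12a. A read-through gene across both that carries the Myl12b symbol (ENSMUSG00000117098) is in neither table. It holds 16.2% of the Myl12a stretches and 25.4% of the Myl12b ones. At the downstream ends of the coding transcripts the shares are higher. There 11.4% of the Myl12a stretches are also in Myl12b, and 9.98% of the Myl12b ones in Myl12a. The read-through gene holds 26.8 and 39.7% there.

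Myl6 (ENSMUSG00000090841, chr10:128490860-128494145, minus strand) ran from 126 over 166 to 204 CPM in WT and held 89.5, 103, 160, 181 and 168 in Wnt5a. Wnt5a replicates 1 and 2 lay below all WT libraries and the others among them, with a log2 fold change of -0.25 (SE 0.21, adjusted p = 0.551). Of its 50-base stretches 8.38% are also in other genes, among them the processed copies Gm5526 and Gm10080. At the downstream ends of its coding transcripts that share is 28.6%. Coro1a (ENSMUSG00000030707, chr7:126699773-126707787, minus strand) ran from 202 over 284 to 352 in WT and held 281, 227, 275, 286 and 188 in Wnt5a, a log2 fold change of -0.13 (SE 0.17, adjusted p = 0.731). Fscn1 (ENSMUSG00000029581, chr5:142960343-142973185, plus strand) was too low to be tested, with 1 to 17 reads per WT library and 0 to 18 per Wnt5a library. Its highest library, Wnt5a replicate 3, held 10.9 CPM, and replicate 4 held 0 reads, which allows up to the floor of 3.

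In all, 8 of the 9 genes passed the filter on low counts and 0 of 8 passed the test, against 0.0229% of the 13098 genes tested in LSK cells. At an unadjusted p under 0.05 there were 3 (Actn1, Myh9 and Flna), as there were 2414 among all genes. DESeq2 called 1 of the 8 (Actn1) and 5.18% of all genes, and limma voom 0. The median log2 fold change of the 8 was 0.33, beside 0.02 over all genes. No member had groups that did not overlap, against 2.81% of all genes.

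Leaving out a single library changed the outcome for Actn1, Flna and Myh9. Without Wnt5a replicate 5, 8.32% of 13387 genes were called, and Actn1 (log2 fold change 1.68, adjusted p = 0.0266), Flna (0.79, 0.0222) and Myh9 (0.96, 0.0274) were among them. Immunoglobulin genes took 10.2% of the reads in that library, the highest of the LSK libraries. Replicates 4 and 5 of Wnt5a are also the 2 libraries whose labels carry 3-digit numbers in place of 4-digit ones, and the labels do not say what the numbers mark. Among the libraries with 4-digit numbers only (6.34% of 13910 genes called), Actn1 differed by 1.83 (adjusted p = 0.0268) and Flna by 0.80 (0.0326), while Myh9 differed by 0.91 (0.0520). No library with a 3-digit number is WT, so no value could be had within that set.

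Other features of the libraries moved with the genotype and with these genes. Satellite repeat transcripts took 0.0836 to 0.417% of the reads in WT, and 6.73, 1.80, 3.04, 1.28 and 0.341% in Wnt5a replicates 1 to 5. Replicates 1 and 3, the highest in satellite reads, were also the highest in Actn1, and replicate 5 was the lowest in both. Mitochondrial genes took 1.77 to 3.39% in WT and 2.54 to 8.96% in Wnt5a. With satellite, immunoglobulin and mitochondrial genes left out of the totals, the log2 fold change of Actn1 was 1.47, of Flna 0.63 and of Myh9 0.80. The part of the satellite and mitochondrial reads in the result was not tested beyond that.

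Markers of other cells were also summed in the LSK libraries. The 7 markers of B and plasma cells made up 0.224 to 1.202% of WT libraries and 0.277 to 4.11% of Wnt5a libraries (highest in replicate 5), and so reached or passed the LSK markers (0.206 to 0.281%). The 8 neutrophil markers took 0.0210 to 0.0297% in WT and 0.0430, 0.0309, 0.0400, 0.0442 and 0.0234% in Wnt5a replicates 1 to 5. The 8 mesenchymal markers took 0.00258 to 0.00489% in WT and 0.00649, 0.00523, 0.00870, 0.00839 and 0.00150% in Wnt5a, from 1 to 5 detected genes. In both lists 4 of 5 Wnt5a libraries exceeded every WT library and replicate 5 did not, as for Flna and Myh9, and their part in the result was not tested. Single genes weighed heavily in these sums. Of the mesenchymal markers, Pdgfrb held 634 reads in WT and 632 in Wnt5a in all, and the next, Fn1, 34 and 54. Of the neutrophil markers, Mpo held 2970 and 3663 reads. Per 1000000 of plain totals the Mpo means were 166 and 305, while those of Elane were 63.3 and 19.2. The 7 markers of platelets and megakaryocytes, which are rich in Myh9 and Flna protein, took 0.0130 to 0.0330% in WT and 0.0118 to 0.0254% in Wnt5a. The 7 LSK markers, Kit and Ly6a among them, were all detected in every library. In sorted bulk samples fewer cells of a type and less RNA per cell cannot be told apart.

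**Figure D2:**
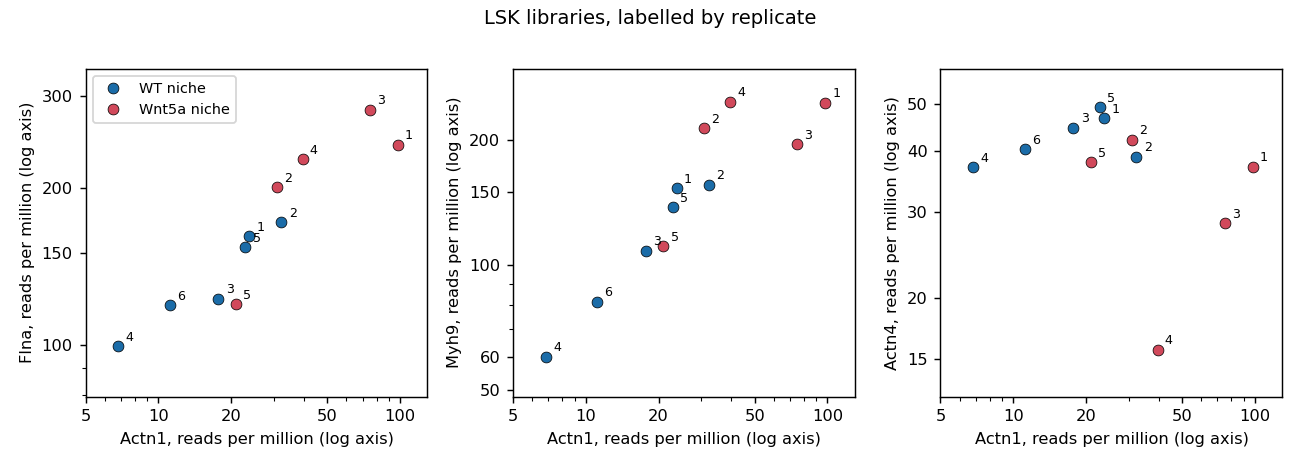
Actn1 against Flna, Myh9 and Actn4 in the 11 LSK libraries, in CPM on log axes, with points numbered by replicate and coloured by niche genotype. Flna and Myh9 climb with Actn1 (Pearson r 0.93 and 0.90), WT replicate 4 is lowest in all 3 genes, and Actn4 does not follow (r -0.34).

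Across the 11 LSK libraries Actn1, Flna and Myh9 varied together. Pearson's r of the log2 values was 0.93 for Actn1 with Flna and 0.90 for Actn1 with Myh9, with Spearman's rank correlations of 0.97 and 0.94. The permutation p of r was 1e-05, the smallest that 100000 permutations give, for the first pair and 8e-05 for the second, or 0.00028 and 0.00056 adjusted over 28 pairs. The p of the rank correlation was 1e-05 and 0.00011. For Flna with Myh9 r was 0.92 and the rank correlation 0.93 (permutation p = 7e-05 and 0.00015). Without the 2 libraries farthest from the median of the first gene, r was 0.93, 0.83 and 0.97 for these 3 pairs. Genes outside the family lay closer still: Smarcd1 to Actn1 (r 0.98), Tacc1 to Flna (0.99) and Erg to Myh9 (0.99). The likeness is thus not particular to these 3 genes, and the share of all gene pairs this alike was not counted.

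The same order held among the WT libraries alone, where no genotype differs. There r was 0.96 for Actn1 with Flna, 0.99 for Actn1 with Myh9 and 0.97 for Flna with Myh9 (n = 6, exact permutation p = 0.00139 each), and the 3 genes ranked the 6 libraries identically. The 5 Wnt5a libraries, fewer than the 6 required here for a correlation, did not share 1 order. Actn1 was highest in replicate 1, Flna in replicate 3 and Myh9 in replicates 4 and 1, while replicate 5 was lowest in all 3 genes. Myl12a and Myl12b also varied together (r 0.94, rank correlation 0.94, n = 11, permutation p = 3e-05 and 8e-05; 0.92 without the 2 farthest libraries), though shared sequence can add to that. Over the 11 libraries of both genotypes, Actn4 ran against Myl12a (r -0.74, rank correlation -0.76, permutation p = 0.00172 and 0.00888, adjusted 0.00963 and 0.0414). Without the 2 farthest libraries r was -0.51. Among the 6 WT libraries alone r was -0.55 and the rank correlation -0.49 (exact permutation p = 0.256 and 0.356). All pairs share the libraries' scaling factors.

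Among the other tested genes with a name, members and mitochondrial genes left aside, the closest in pattern to Actn1 over the 11 LSK libraries was Smarcd1 (r 0.98), to Flna Tacc1 (0.99) and to Myh9 Erg (0.99). Actn4 was closest to Ldhd (0.98), Myl6 to Lamtor4 (0.93), Coro1a to Orai1 (0.88), and both Myl12a (0.95) and Myl12b (0.94) to Nop58. These are the highest values among all genes tested and are given as a description.

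The wider pathway was read from 83 other genes of actin bundling and myosin control, in 6 lists. In LSK cells 62 of them were tested. By edgeR 0 passed, and 10 had an unadjusted p under 0.05, beside 2414 of all 13098 genes. DESeq2 called 2 (Arhgap18 and Myo1c), beside 5.18% of all genes, and limma voom 0. Their median log2 fold change was 0.19, and 38 of 62 were positive, beside 51.7% of all genes. All 5 tested coronins other than Coro1a were positive with a median of 0.50. Coro7, the coronin of the Golgi, had the smallest p of them, at 82.9 ± 24.8 CPM in WT and 137 ± 30.9 in Wnt5a (SD, n = 6 and 5, log2 fold change 0.73, adjusted p = 0.132).

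Myosin II regulators were spread evenly, with 8 of 17 positive and a median of -0.01. Arhgap18, which switches off RhoA, ran from 132 to 166 CPM in WT and from 86.0 to 112 in Wnt5a. Its groups did not overlap, and its log2 fold change was -0.59 (SE 0.16, adjusted p = 0.0964). DESeq2 called it (adjusted p = 0.0154). Among the other cross-linkers and bundlers 12 of 19 were positive, and Cnn2, the calponin that stabilises filaments, had the smallest p (-0.61, SE 0.20, adjusted p = 0.135). The unconventional myosins had 8 of 11 positive, led by the membrane motor Myo1c at 0.95 (SE 0.27, adjusted p = 0.102; 0.0254 by DESeq2). Of the tropomyosins and filament caps 4 of 9 were positive, and the pointed-end cap Tmod3 had 0.36 (adjusted p = 0.305). The one other myosin II chain tested, Myh10, was uncertain at 0.45 (SE 0.78, adjusted p = 0.793).

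The niche populations were then compared between genotypes. Before that, the labels were set against defining markers. Col1a1 and the other osteoblast markers summed to 0.639 to 1.81% of UMIs in OBC WT, above every EC and MSC library, and to 0.321 to 0.614% in OBC Wnt5a, where the range overlaps with that of EC. The 8 endothelial markers summed to 0.782 to 1.47% in EC. They summed to 1.06 to 1.30% in MSC WT, within the EC range, to 0.611 to 0.780% in MSC Wnt5a, just under it, and to 0.178 to 0.488% in OBC. The 8 mesenchymal markers were highest in MSC, at 0.247 to 0.810%. Haemoglobin genes took 24.3% of UMIs in EC WT replicate 14. They took 1.90 and 2.57% in the other EC WT libraries and 3.80 to 6.28% in EC Wnt5a. Replicate 14 was also the lowest EC WT library in Actn4, Flna, Myl6, Myl12a and Myl12b. Haemoglobin took 3.42 to 11.96% in OBC and 3.87 to 7.84% in MSC. Ribosomal RNA genes took 1.85 to 14.3% across niche libraries. The part of both in the results was not tested beyond a fit without them.

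**Figure D3:**
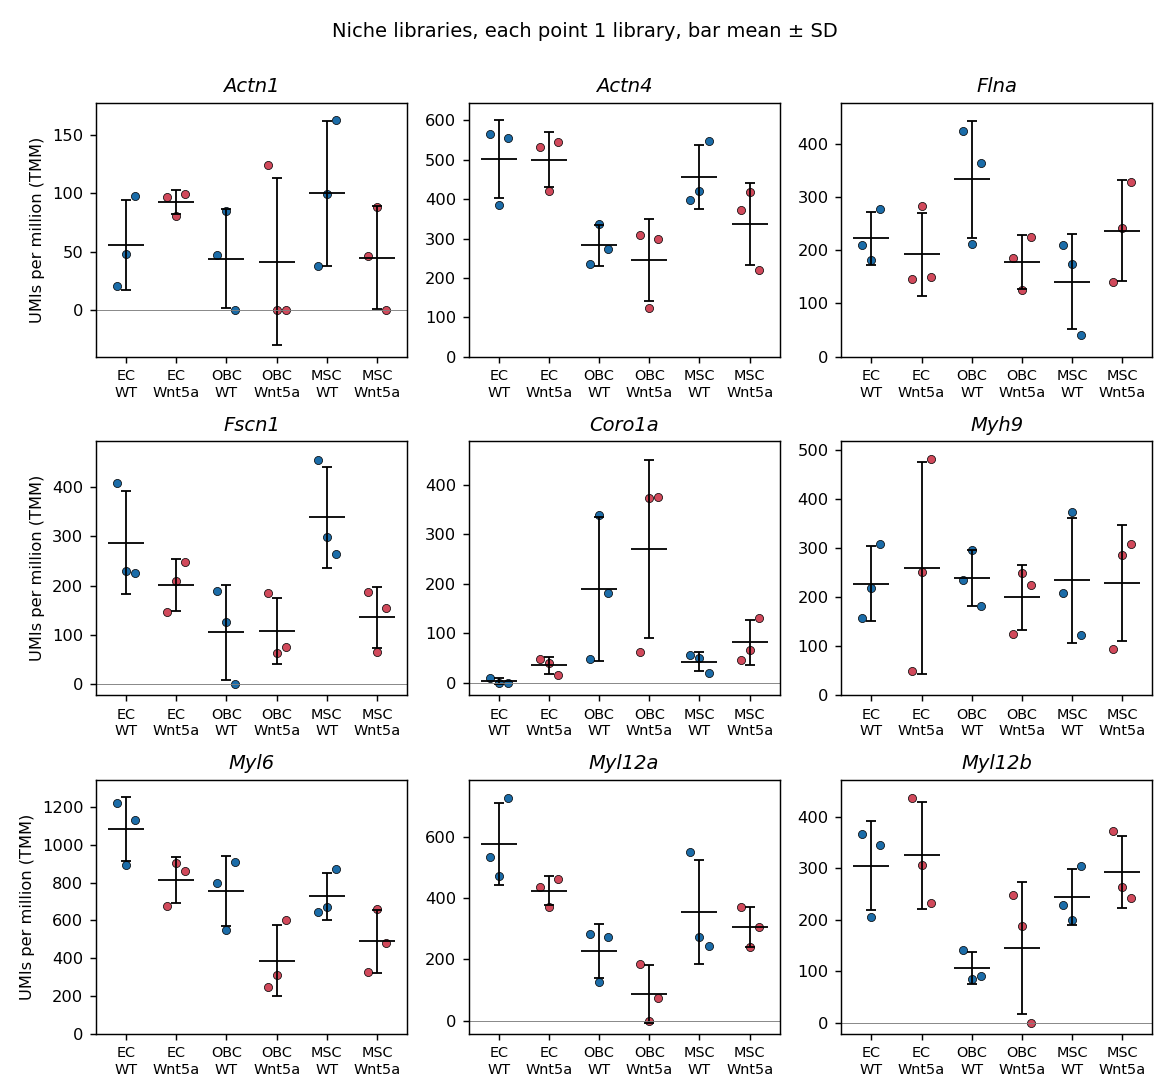
CPM (UMIs) of the 9 genes in the EC, OBC and MSC libraries of WT (blue) and Wnt5a (red) niches, 3 libraries per group, with the mean ± SD as a bar. The means of Myl6, Myl12a and Actn4 over both genotypes are highest in EC (949, 500 and 501), that of Coro1a is highest in OBC (229.7), and most genotype pairs overlap.

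Of the 9 genes 8 passed the filter on low counts in the niche table, and Actn1, at 0 to 13 UMIs per library, did not. In EC 0 of 8 passed the test between genotypes, against 0.364% of the 1099 genes tested. The counts were also 0 of 8 in OBC (background 1.001%), 0 of 8 in MSC (0.455%) and 0 of 8 for the mean of the 3 differences (2.82%). At an unadjusted p under 0.05 there was 1 in EC, 0 in OBC, 1 in MSC and 2 in the mean. Among all 1099 genes there were 89, 96, 203 and 180. For the mean, DESeq2 called 1 (Myl6) and 3.46% of all genes, and no other genotype comparison of niche cells had a member called by DESeq2 or limma voom. The interaction of genotype with population also called 0 of 8 (0.455% of all genes), with adjusted p from 0.695 to 0.975.

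Myl6, the essential light chain, had the smallest p of the 8 in the mean over the niche populations. In EC it held 1223, 893 and 1131 CPM in WT and 679, 904 and 861 in Wnt5a. In OBC it held 801, 549 and 911 against 248, 311 and 600, and in MSC 646, 670 and 872 against 326, 658 and 482. In EC and in OBC 2 of 3 Wnt5a libraries lay below all WT libraries and 1 among them, and in MSC likewise 2 of 3 lay below. The mean log2 fold change was -0.62 (SE 0.24, adjusted p = 0.148), and DESeq2 gave -0.70 (adjusted p = 0.0498). In LSK cells the value was -0.25, as given above.

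Fscn1 differed most in MSC. Its WT libraries held 456, 298 and 264 CPM and its Wnt5a libraries 186, 65.8 and 154, so the groups did not overlap. It was the one member of which that was true in MSC, where 25.8% of all genes tested have groups that do not overlap. The log2 fold change was -1.41 (SE 0.53, adjusted p = 0.143). Endothelial markers were lower in the same Wnt5a libraries (0.611 to 0.780%, against 1.06 to 1.30% in MSC WT), and their part in the Fscn1 values was not tested. In EC the bundler held 408, 229 and 225 in WT and 145, 210 and 248 in Wnt5a, which overlap.

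Coro1a was close to the limit of detection in the niche. EC WT libraries held 1, 0 and 0 UMIs and EC Wnt5a libraries 1, 5 and 1. Pooled, these are 7 of 182394 and 1 of 296459 UMIs, a ratio of 11.4 (95% exact interval 1.46 to 513, counting error only). The groups did not overlap, and neither did those of Myl12a, so 2 of 8 members were apart in EC, against 14.1% of all genes. The adjusted p of Coro1a was 0.540.

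Neutrophil markers moved with Coro1a. The 8 of them summed to 0.0324 to 0.0483% of UMIs in EC WT and 0.140 to 0.272% in EC Wnt5a, with 5 to 8 detected, and their part in the Coro1a values was not tested. The 10 pan-leukocyte genes took 0.0294 to 0.0415% in EC WT, with 4 to 6 detected per library, and 0.0368 to 0.0759% in EC Wnt5a, with 3 to 8 detected. Among them Srgn held most, at 87 UMIs in EC WT and 72 in EC Wnt5a. Laptm5 held 3 and 11, Lsp1 0 and 6, Ptprc 2 and 0, and Cd53 0 in both. In OBC, Coro1a held 1, 8 and 2 UMIs in WT and 1, 6 and 5 in Wnt5a, and in MSC 3, 2 and 1 against 1, 3 and 6, with log2 fold changes of 0.45 (SE 0.89) and 0.99 (SE 0.98).

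Myl12a held 533, 471 and 727 CPM in EC WT and 436, 371 and 463 in EC Wnt5a, each lower than every WT library, with a log2 fold change of -0.47 (SE 0.39, adjusted p = 0.787). In OBC it rested on 12 UMIs in WT and 4 in Wnt5a in all. Its partner Myl12b held 366, 205 and 345 against 436, 307 and 232 in EC (log2 fold change -0.01, SE 0.39). Actn4 was even between genotypes in EC, at 564, 386 and 554 against 533, 420 and 546 (-0.04, SE 0.36).

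Flna and Myh9, which varied with Actn1 in LSK cells, had values of differing sign in the niche. Flna had log2 fold changes of -0.10 (SE 0.45) in EC, -0.88 (SE 0.67) in OBC and 0.82 (SE 0.53) in MSC, and Myh9 0.34 (SE 0.45), -0.32 (SE 0.72) and 0.11 (SE 0.52). In EC Wnt5a the 3 Myh9 values were 48.5, 250 and 480 CPM, a span that encloses the 3 WT values (157, 217 and 307). Actn1 held 2, 4 and 13 UMIs in EC WT and 2, 10 and 6 in EC Wnt5a. It held at most 2 per OBC library and at most 8 per MSC library.

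**Figure D4:**
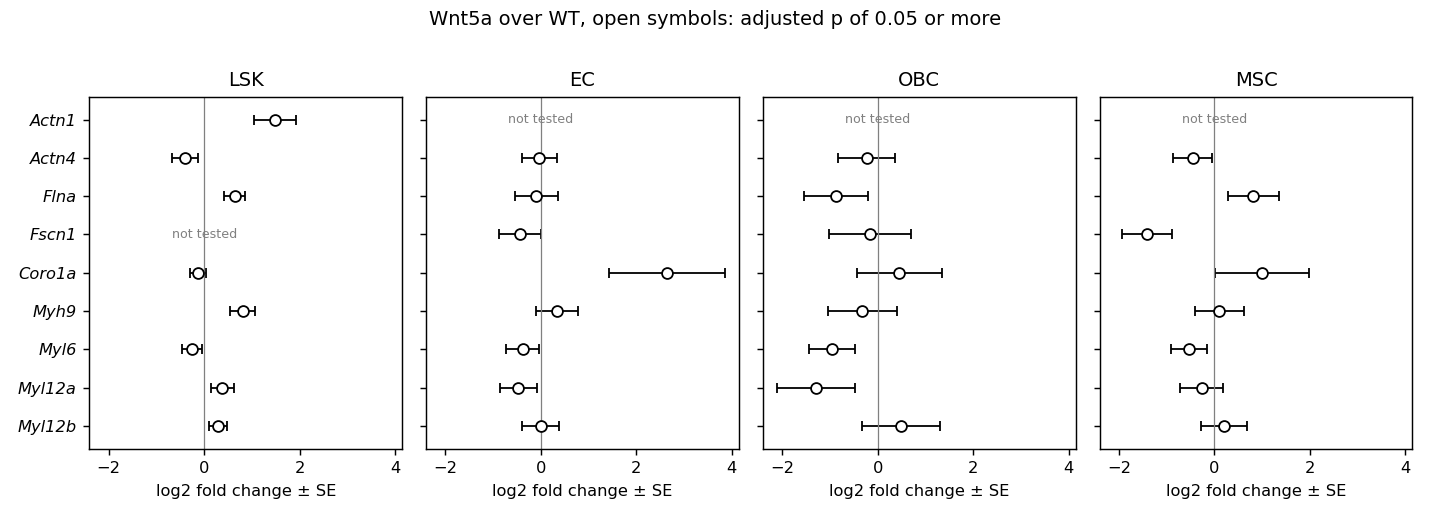
Log2 fold change (Wnt5a over WT) with its standard error for the 9 genes in LSK, EC, OBC and MSC cells, on one scale. No member passes an adjusted p under 0.05 (all symbols open), and Actn1 in LSK cells (1.48) and Coro1a in EC (2.64, from 8 UMIs in all) lie farthest to the right.

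Between niche populations, with the genotypes averaged, the members did differ. EC stood against OBC with 5 of 8 members past the test, 4 higher in EC and 1 lower, where 47.95% of all 1099 genes passed (28.4% higher and 19.6% lower). The share of members was therefore near that of all genes. The 1 lower in EC, Coro1a, passed the filter on low counts only through OBC libraries, as given below. Of the 8 members, 2 had groups that did not overlap (Actn4 and Myl12a), against 20.3% of all genes. The median log2 fold change of the 8 was 0.88, beside 0.31 over all genes, so the whole table leaned toward EC.

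All 3 light chains were higher in EC. Myl12a ran from 371 over 467 to 727 CPM in the 6 EC libraries and from 0 over 156 to 283 in the 6 OBC libraries, which do not overlap (log2 fold change 1.81, SE 0.43, adjusted p = 0.000430). Myl12b ran from 205 over 326 to 436 in EC and from 0 over 116 to 248 in OBC, which overlap in part (1.248, SE 0.44, adjusted p = 0.0152). With the counts of both genes summed, a choice made after seeing the data, the log2 fold change was 1.52 (adjusted p = 0.000194). Myl6 ran from 679 over 899 to 1223 in EC and from 248 over 575 to 911 in OBC (0.85, SE 0.29, adjusted p = 0.0151).

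The heavy chain Myh9 did not pass the test between EC and OBC, with means of 243 ± 146 and 219 ± 59.2 CPM (SD over 6 libraries each), a log2 fold change of 0.22 (SE 0.42) and an adjusted p of 0.670. Filamin A did not either, at 207 ± 60.8 and 256 ± 114 (-0.14, SE 0.41, adjusted p = 0.785). Among the cross-linkers, Actn4 was higher in EC (386 to 564 against 125 to 338 CPM, log2 fold change 0.91, SE 0.34, adjusted p = 0.0235). Fscn1 had a log2 fold change of 1.07 (SE 0.46) with an adjusted p of 0.0524, and it passed under 5 of the other settings tried besides those that leave out a library.

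Coro1a went the other way. It held 8 of 478853 UMIs in EC and 23 of 115672 in OBC, or 16.7 and 199 in 1000000 of the plain pooled totals. In CPM, OBC libraries ran from 47.1 to 375 and EC libraries from 0 to 48.5. These overlap at the lower end of OBC. The fitted log2 fold change was -3.98 (SE 0.75, adjusted p = 2.00e-05). Only OBC libraries brought Coro1a past the filter on low counts. Its OBC replicates 8, 11 and 12 held 338, 374 and 375 CPM, against at most 48.5 in EC and 132 in MSC. The calls of Coro1a between OBC and the other populations are therefore partly fixed by the filter. Neutrophil markers took 0.249 to 0.910% of UMIs in OBC and 0.0324 to 0.272% in EC. The 10 pan-leukocyte genes took 0.0291 to 0.0940% in OBC, with 2 to 7 detected per library, and 0.0294 to 0.0759% in EC. In EC most of that was Srgn, with 87 UMIs in WT and 72 in Wnt5a, against 11 and 9 in OBC. The ranges therefore do not show that the other leukocyte genes were alike in EC and OBC. The part of blood cells in this difference was not tested.

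Calls between EC and OBC depended on some OBC libraries. Without OBC WT replicate 8, Myl6 (adjusted p = 0.0652) and Myl12b (0.0595) no longer passed, and Actn4 no longer passed without OBC WT replicate 7 (0.0669) or OBC Wnt5a replicate 11 (0.0701). Myl12a and Coro1a passed in all 18 fits that left out a library, Coro1a with the limit from the filter given above. Mitochondrial genes took 3.57 to 17.1% of UMIs in OBC against 0.9505 to 2.65% in EC, and the part of that in these differences was not tested.

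**Figure D5:**
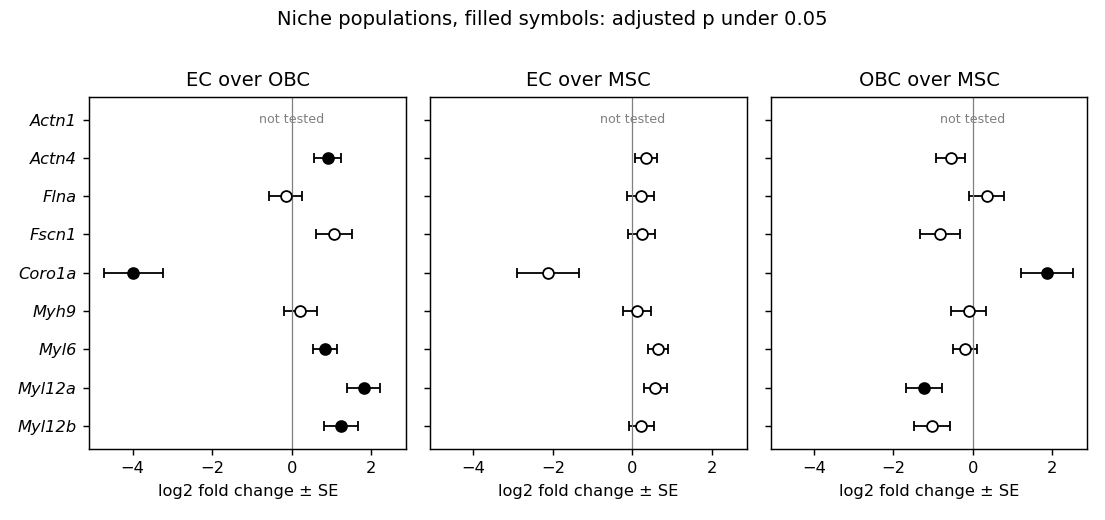
Log2 fold change with its standard error between niche populations for the 9 genes, over both genotypes, with filled symbols for an adjusted p under 0.05. EC exceed OBC in Myl6, Myl12a, Myl12b and Actn4 and lie below OBC in Coro1a (-3.98), which passed the filter only through OBC. No symbol is filled between EC and MSC.

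OBC against MSC had 2 of 8 members past the test, 1 in each direction, where 32.3% of all genes passed (12.9% higher and 19.4% lower). The median log2 fold change of the 8 was -0.38, beside -0.22 over all genes. Myl12a was lower in OBC (-1.23, SE 0.46, adjusted p = 0.0320), with MSC libraries at 241 to 551 and OBC libraries at 0 to 283 CPM. Coro1a was higher in OBC (1.86, SE 0.66, adjusted p = 0.0246), at 23 of 115672 against 16 of 248173 UMIs. It passed the filter on low counts only through OBC, so its call is partly fixed by the filter. Each of these calls was lost in 6 of 18 fits that left out a library. Myl12a lost it without MSC WT replicate 1, OBC WT replicate 8, MSC Wnt5a replicate 4 or 6, or OBC Wnt5a replicate 11 or 12 (adjusted p up to 0.123). Coro1a lost it without OBC WT replicate 8, MSC WT replicate 3, MSC Wnt5a replicate 4 or 5, or OBC Wnt5a replicate 11 or 12 (up to 0.216).

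EC and MSC differed in 0 of 8 members, against 3.55% of all genes. Endothelial markers in MSC WT lay within the EC range, as given above, and their part in this was not tested. At an unadjusted p under 0.05 there were 2, beside 162 of all 1099 genes. DESeq2 called 0 and limma voom 1 (4.09% of all genes). Coro1a had a log2 fold change of -2.12 (SE 0.78, adjusted p = 0.123; 0.0389 by limma voom) and Myl6 of 0.64 (SE 0.26, adjusted p = 0.175). In order of mean level, Myl12a stood at 500 ± 123 CPM in EC, 331 ± 118 in MSC and 157 ± 112 in OBC (SD, n = 6 each). Only the steps to OBC passed the test. Myl12b had the same order, at 315 ± 86.3, 268 ± 62.3 and 125 ± 86.6, and its step from MSC to OBC did not pass (adjusted p = 0.0771).

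Over the 18 niche libraries, the gene closest in pattern to Myl12a was Cd36 (r 0.91), to Myl12b Rasip1 (0.91), to Actn4 Tm4sf1 (0.92) and to Fscn1 Qk (0.86). Coro1a was closest to Rad21 (0.92), with the neutrophil gene Ltf, named after its value was seen, next (0.86), Myl6 to Rapgef1 (0.79), Myh9 to Ywhaz (0.77) and Flna to Trf (0.57). The 3 populations and their depths are shared by all these genes, so the values mostly describe which genes differ between populations alike.

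Of the 83 pathway genes 17 were tested in the niche, and 0 passed between genotypes in any population by edgeR, DESeq2 or limma voom. At an unadjusted p under 0.05 by edgeR there were 0 in EC, 3 in OBC and 1 in MSC. Among all 1099 genes there were 89, 96 and 203. The smallest p between genotypes belonged to Tpm1, a tropomyosin, in OBC (log2 fold change -1.57, SE 0.62, adjusted p = 0.334) and to Cnn2 in MSC (-1.41, SE 0.65, adjusted p = 0.245). In EC the smallest p was that of Palld, an actin-bundling scaffold (-0.88, SE 0.48, adjusted p = 0.605). Cnn2 in OBC had a value of the opposite sign (1.51, SE 0.75), and its interaction of genotype with population had an adjusted p of 0.504.

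EC exceeded OBC in 5 of the 17, beside 28.4% of all genes, and lay below in 0, beside 19.6%. The share higher was near that of all genes. In either direction 47.95% of all genes were called, and the share of the 17 was not above that. Among the 5 called were 3 of the 6 tested myosin II regulators. The GTPase Rhob stood at 334 ± 221 CPM in EC WT and 76.4 ± 94.6 in OBC WT (SD, n = 3, log2 fold change over both genotypes 2.48, SE 0.60, adjusted p = 0.000791). The GTPase Rhoa, an activator of myosin II, differed by 1.54 (SE 0.59, adjusted p = 0.0277) and Ppp1r12c, a targeting subunit of myosin phosphatase, by 1.48 (SE 0.46, adjusted p = 0.00694). The filopodial motor Myo10 differed by 0.99 (SE 0.33, adjusted p = 0.0116).

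OBC against MSC had 3 of the 17 past the test, beside 32.3% of all genes. Lower were 2 of them, Rhob (-2.21, adjusted p = 0.00603) and Rhoa (-1.69, adjusted p = 0.0258), and 1 higher, Tpm1 (1.46, adjusted p = 0.0118). Rhob and Ppp1r12c kept their calls against EC in all 18 fits that left out a library. Rhoa lost its call against EC without OBC WT replicate 9 (adjusted p = 0.0582) or EC WT replicate 15 (0.0723), and Myo10 without OBC WT replicate 8 (0.0584). Against MSC, Rhob kept its call in all 18. Rhoa lost it without MSC WT replicate 3, OBC WT replicate 9, MSC Wnt5a replicate 6 or OBC Wnt5a replicate 12 (adjusted p up to 0.106), and Tpm1 lost it without OBC WT replicate 8 (0.0914) or OBC Wnt5a replicate 10 (0.199). Between EC and MSC 0 of 17 passed by any of the 3 tools. At an unadjusted p under 0.05 by edgeR there were 2, beside 162 of all 1099 genes.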

How the data were processed

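LSK counts are reads per Ensembl gene and niche counts are UMIs per Ensembl gene, as deposited by the authors. STAR, featureCounts and the mm10 (GRCm38) genome are named in the submitters' processing notes. The sources used here do not give the annotation release or the use of strand, so the opposite-strand overlaps of Coro1a with Bola2, Actn4 with Capn12 and Myl12a with Myom1 could not be separated. edgeR 4.0.16 (R 4.3.3) tested the LSK table with 11 libraries and the niche table with 18 libraries in 6 groups, by its robust quasi-likelihood method after TMM scaling. Low genes were removed per group by filterByExpr (minimum count 10, total 15). Genes passed under a Benjamini-Hochberg adjusted p of 0.05, adjusted across the table. The SE was obtained from the log2 fold change and F. Library-scaled values use TMM-scaled totals of the counts. In the niche, 28 spike-in entries were left out. Length-scaled values use the union of GENCODE exons. The fits were tested on simulated data and recovered most of the large changes set there. Those changes were set only in the more abundant genes, with the same spread for every gene. The simulation therefore does not show what the fits can find in low-count members or under the real spread between libraries. Alternatives were DESeq2 1.42.0, limma voom (limma 3.58.1), other scaling and filters, and fits without single libraries. Genes named were all 9 members, from each pathway list up to 3 called genes or else the one of smallest p, and for each member the gene most alike in log2 values; a pathway gene the rule names is not reported here. Members, lists and rules were chosen with earlier results of these data known. No label says that replicates come from separate animals, so p-values measure the spread between libraries, which may be technical.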

Additional observations from a re-analysis of the deposited data

How the results depend on the processing

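The depth of the OBC libraries and the small counts of Coro1a and Actn1 limited what the niche comparisons could show. No paired analysis was possible because the groups share no replicate numbers that pair libraries: niche numbers differ between groups, and LSK numbers were given in accession order. Niche numbers do run in parallel through MSC, OBC and EC, but no label says whether such libraries share an animal. The fits treated all niche libraries as independent. The number of members past the test in LSK cells was 1 with no filter on low counts, 1 with DESeq2 and 2 among 4-digit label numbers, and ran from 0 to 3 when single libraries were left out. Genes called there among all tested numbered 54 with plain totals, 343 without the filter, 679 with DESeq2, 0 with limma voom, 1114 without Wnt5a replicate 5 and 882 among 4-digit numbers, against 3. The count was 1 for the niche mean with DESeq2 and 1 for EC against MSC with limma voom. For EC against OBC it ran from 3 to 6 without single libraries. For OBC against MSC it was 1 without the filter (Coro1a adjusted p = 0.270), 0 with the compared groups alone, where 2 members passed the filter, and 0 to 3 without single libraries. For EC against OBC, Fscn1 was also called with RLE scaling, plain totals, no filter and DESeq2 (adjusted p 0.0121 to 0.0465). It was called too without haemoglobin, immunoglobulin, mitochondrial and ribosomal RNA genes (0.0417). For OBC against MSC, Myl12b was also called with plain totals (0.0323). The cause of these moves was not tested.

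Some log2 fold changes of uncalled genes turned sign. Between EC genotypes, Actn4 was 0.0185 with plain totals and 0.0207 with the compared groups alone, and Myl12b was 0.0578 and 0.0535 there and 0.00581 with limma voom. Fscn1 in OBC was 0.129 with limma voom. In MSC, Myh9 was -0.126 with RLE scaling and -0.0188 with plain totals, and Myl12b was -0.00600 with RLE. In the mean, Myh9 was -0.0335 with RLE and -0.0197 without the filter, and Flna was 0.0808 with limma voom. EC against OBC gave Flna 0.146 with plain totals and 0.497 without the filter, and Myh9 -0.0144 with limma voom. OBC against MSC gave Flna -0.0571 without the filter and Myh9 0.0820 with limma voom. With plain totals the all-gene median shifted by -0.18 in LSK and 0.28 in EC against OBC, where omitting the filter shifted it by 0.61.

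Without single libraries, EC values ran from -0.201 to 0.0909 for Actn4, -0.608 to 0.163 for Flna, -0.227 to 0.721 for Myh9 and -0.222 to 0.183 for Myl12b. OBC values ran from -0.476 to 0.0730 for Actn4, -0.841 to 0.339 for Fscn1, -0.0665 to 1.39 for Coro1a and -0.103 to 1.01 for Myl12b. MSC values ran from -0.378 to 0.494 for Myh9, -0.656 to 0.0411 for Myl12a and -0.0810 to 0.215 for Myl12b. In the mean the ranges were -0.242 to 0.0586 for Flna, -0.184 to 0.165 for Myh9 and -0.192 to 0.0652 for Myo10. They were -0.0321 to 0.520 for Flna and -0.0995 to 0.382 for Myh9 in EC against MSC, and -0.321 to 0.0827 and -0.00495 to 0.498 in EC against OBC. For Myh9 in OBC against MSC the range was -0.269 to 0.145.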
